A study of Bos taurus with 33 samples.

Results

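The heat-shock proteins and DNAJ chaperones were described in bovine oocytes and in the cumulus cells (CC) that surround them. Every gene whose symbol starts with HSPA, HSPB, HSPD, HSPE, HSPH, HSP90, DNAJA, DNAJB or DNAJC was taken, without HSPBAP1 and HSPBP1, which gave 69 genes of the 17543 listed in either table. They were 25 HSP genes and 44 DNAJ genes, the latter made up of 4 DNAJA, 13 DNAJB and 27 DNAJC genes. Of the 69, 61 were listed for oocytes and CC, 4 for oocytes alone and 4 for CC alone, joined by Ensembl identifier because 3 lacked a symbol in the oocyte table and 5 in the CC table. HSPA5 was not analysed here.

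RNA was sequenced from 16 pools of oocytes and 17 pools of CC, each made from 4 cumulus-oocyte complexes of suckled postpartum beef cows. All cows received gonadotropin releasing hormone (GnRH) on day -9 and prostaglandin F2 alpha on day -2. Cows without estrus by day 0 received GnRH again and were classified by the diameter of the largest follicle as small (up to 11.7 mm, 6 oocyte and 6 CC pools) or large (12.7 mm or more, 6 oocyte and 6 CC pools). Cows that showed estrus had their own gonadotropin surge without the second GnRH and made up the spontaneous classification (11.7 to 14 mm, 4 oocyte and 5 CC pools). Complexes were aspirated about 23 h after GnRH or estrus by the protocol, and 20 h by the sample labels, which give no age for the cows. Size and the origin of the surge thus both differ between small and spontaneous follicles. By the study, mean diameter also differed between large and spontaneous follicles. Size and the origin of the surge cannot be told apart in either comparison. A pool combines 4 complexes, so differences between single cows are not seen. By the study's methods, CC pools came from the complexes of the oocyte pools, so oocyte and CC pools share complexes, but the labels do not say which pools belong together, and fits across the cell types treated all 33 pools as independent.

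Chaperones help other proteins to fold, refold after stress, assemble and cross membranes. HSP70 proteins (the HSPA family) bind and release unfolded stretches of a client in a cycle driven by ATP, J proteins (the DNAJ families) bring clients and start the cycle, and HSP110 proteins reload HSP70 with nucleotide. HSP90 proteins finish the folding of kinases and receptors, HSPD1 and HSPE1 form the folding chamber of mitochondria, and small heat-shock proteins such as HSPB1 hold unfolded clients. Separate members serve the cytosol, the endoplasmic reticulum (ER) and mitochondria, and an oocyte stores their transcripts for the early embryo.

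Values are CPM, the reads of a gene scaled by all reads on genes of its library, from 7664375 to 17934916 reads in the oocyte pools and from 1911600 to 5772431 in the CC pools. A count of 0 allows up to 0.391 CPM for oocytes and up to 1.57 CPM for CC, counting error only. The 12 oocyte markers summed to 9597 to 13781 CPM in oocytes, against at most 7.83 CPM in CC. The cumulus and granulosa markers summed to 10613 to 32935 CPM in CC and to 818 to 4397 CPM in oocytes, where AMHR2, FOXL2 or LHCGR had no read in any pool of some classifications. Of the 10 of these markers tested between the cell types, 7 were called higher in CC and the rest higher in oocytes. The sum in oocytes is thus not a measure of cumulus RNA alone. Mitochondrially encoded genes took 0.786 to 4.41% of oocyte reads and 11.6 to 39.8% of CC reads, and since CPM are shares of a library, each difference below is relative to all other genes. Bulk RNA does not tell fewer cells of a type from less RNA per cell. The study repeated its comparisons without small oocyte replicate 3, the oocyte pool with the highest sum of cumulus markers (4397 CPM), and a call in comparisons with small oocyte pools had to hold without it.

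The 69 genes together took 0.859 to 1.12% of the reads of an oocyte pool (median 0.973%) and 1.46 to 2.21% of those of a CC pool (median 1.80%). These ranges do not overlap. HSPB1 alone had 5147 to 10050 CPM in CC pools and 62.3 to 778 CPM in oocyte pools, over the genes listed in both tables. Much of the gap thus rests on that gene, and the shares without it were not computed. The median share in CC was 1.57% for small, 1.79% for large and 2.07% for spontaneous follicles, and 0.960%, 0.957% and 1.007% in the oocytes of the same classifications. At least 5 CPM in 4 oocyte pools or 5 CC pools was reached by 51 genes in oocytes and 52 in CC. Of these, 49 passed in oocytes and in CC, and 15 of the 69 passed in neither. Within a classification, the SD of log2(CPM + 1) ran from 0.185 to 1.67 over the genes in oocytes (median 0.472, against 0.661 for all transcripts tested) and from 0.156 to 0.919 in CC (median 0.354, against 0.480).

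The first comparison asked in which cell type each chaperone takes the larger share of reads. CPM were recomputed over the 14980 genes listed in both tables, and a gene was called at an adjusted p under 0.05 (limma) and a difference of at least 2-fold. Of the 52 chaperone genes tested, 33 were called (63.5%), against 70.9% of all 10149 genes tested, so the share was near that of genes at large. Of the 33, 20 were higher in oocytes (background 38.1%) and 13 in CC (background 32.7%). This split moved with the scaling. With median-of-ratios scaling it was 12 and 19, and without mitochondrially encoded genes 13 and 18, as the median difference of all genes moved from -0.26 to 0.20 and 0.07 on the log2 scale. A set of 25 genes was called in the same direction with all 5 scalings or tools tried, 12 higher in oocytes and 13 higher in CC. In 22 of the 52 the oocyte and CC pools did not overlap (background 39.7%), and 48 of 52 differences had the same sign within the small, large and spontaneous pools. No share over all genes is available for the set of 25 or for the 48 of 52. Neither count is therefore read as a trait of chaperones.

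**Figure D1:**
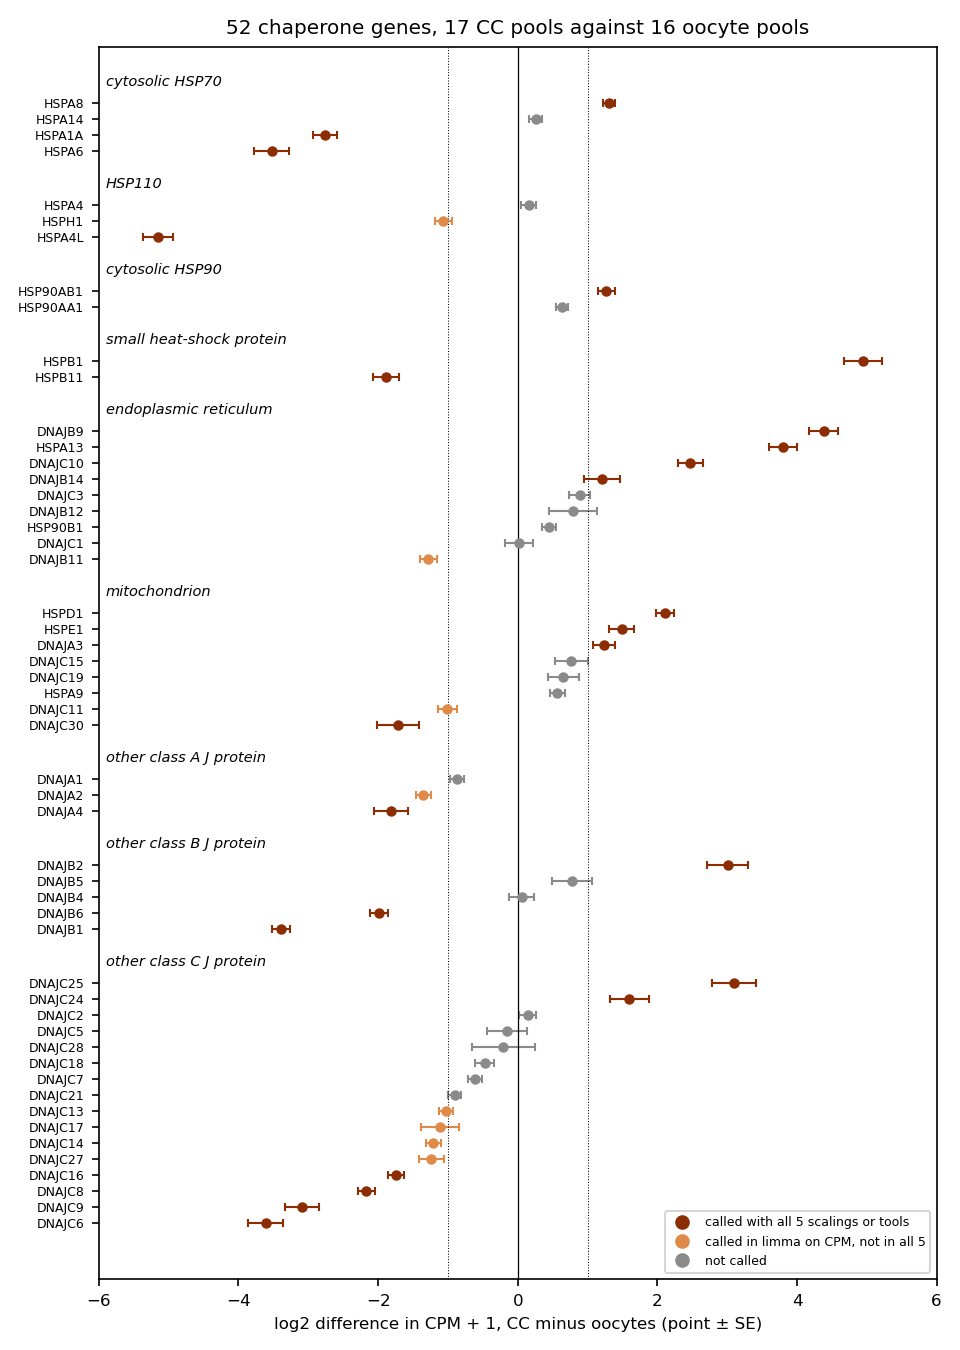
Log2 difference in CPM + 1 between 17 CC pools and 16 oocyte pools for 52 chaperone genes, with SE, grouped by compartment or class; dotted lines mark 2-fold. Dark points are the 25 genes called with all 5 scalings or tools, and in each of the larger groups some members lie on either side of 0.

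The cytosolic HSP70 genes went in opposite directions. HSPA8, the constitutive HSP70 that also strips clathrin from vesicles, had 580 to 1199 CPM in oocyte pools (median 926) and 1651 to 3013 CPM in CC pools (median 2158). No CC pool was as low as the highest oocyte pool, and the level was 2.46-fold higher in CC (log2 difference 1.31, SE 0.09, adjusted p = 5.1e-17, limma). HSPA1A, the stress-inducible HSP70, lay the other way, with 93.2 to 195 CPM in oocyte pools (median 142) and 10.47 to 40.2 CPM in CC pools (median 19.8). It was 6.71-fold higher in oocytes (log2 difference -2.76, SE 0.17, adjusted p = 7.2e-18), again without overlap. HSPA6, another inducible HSP70, had 10.4 to 45.7 CPM in oocyte pools and at most 3.63 CPM in CC pools, where 3 of 17 pools had no read (log2 difference -3.52, SE 0.25). HSPA1A belongs to a set of near-identical genes between which reads can be split, so its level is less certain than its direction.

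Of the 3 HSP110 genes, HSPA4L was called higher in oocytes with every scaling and tool, HSPH1 on CPM alone, and HSPA4 was not called on CPM. HSPA4L had 198 to 364 CPM in oocyte pools (median 294) and 0.520 to 13.3 CPM in CC pools (median 8.66), 35.6-fold higher in oocytes (log2 difference -5.15, SE 0.21, adjusted p = 2.3e-23, limma). Its paralogue HSPA4 was at 342 ± 62.6 CPM in oocytes (SD, n = 16) and 386 ± 81.5 CPM in CC (SD, n = 17), a difference that did not pass (log2 0.16, SE 0.11, adjusted p = 0.18, limma). HSPH1, the third HSP110 gene, was 2.10-fold higher in oocytes (log2 difference -1.06, SE 0.13) on CPM, but below 2-fold with median-of-ratios scaling (log2 difference -0.64), without mitochondrially encoded genes (-0.77), with edgeR (-0.84) and with DESeq2 (-0.62). DNAJB1, the J protein that works with HSPA8 and HSP110 to take aggregates apart, had 133 to 328 CPM in oocyte pools (median 235) and 13.3 to 38.0 CPM in CC pools (median 21.9). It was 10.9-fold higher in oocytes (log2 difference -3.39, SE 0.12, adjusted p = 6.1e-25, limma) in every classification. DNAJA1, a farnesylated J protein of the cytosol, did not overlap between the cell types at 502 to 843 CPM in oocytes and 168 to 471 CPM in CC, yet stayed under 2-fold (log2 difference -0.87, SE 0.10). Of the 3 class A J proteins outside mitochondria, DNAJA2 and DNAJA4 were called higher in oocytes, and DNAJA4 alone kept that call with every scaling and tool.

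Among the other J proteins higher in oocytes were genes of specialised work. DNAJC6, auxilin, which brings HSPA8 to clathrin coats, had 47.5 to 220 CPM in oocytes, against 1.05 to 18.5 CPM in CC (log2 difference -3.61, SE 0.26, adjusted p = 5.4e-16, limma). DNAJC9, a co-chaperone of histones H3 and H4, had 20.2 to 112 CPM in oocytes and 0.568 to 12.6 CPM in CC (log2 difference -3.09, SE 0.24). Neither gene overlapped between the cell types. Of the 16 class C genes outside the ER and mitochondria, these 2 included, 8 were called higher in oocytes and 2 in CC. Over all genes tested, 38.1% were called higher in oocytes and 32.7% in CC. Of the 8, the calls of DNAJC13, DNAJC14, DNAJC17 and DNAJC27 were lost with median-of-ratios scaling, without mitochondrially encoded genes and with DESeq2. DNAJC25 showed the larger difference of the 2 called higher in CC (log2 difference 3.097, SE 0.31). It had 0 to 18.1 CPM in oocytes (1 of 16 pools without a read) and 22.8 to 54.8 CPM in CC. DNAJB2, a J protein known from neurons that passes clients to the proteasome, was at 0.0782 to 12.4 CPM in oocytes and 11.5 to 37.8 CPM in CC (log2 difference 3.01, SE 0.29), and the ranges met at their edges.

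HSPB1, the small heat-shock protein that binds actin filaments and unfolded clients, was higher in CC in every classification. It had 5147 to 10050 CPM in CC pools (median 6641) and 62.3 to 778 CPM in oocyte pools (median 225), 23.4-fold higher in CC (log2 difference 4.94, SE 0.27, adjusted p = 2.7e-19, limma). The difference was 4.98, 5.13 and 4.64 on the log2 scale in small, large and spontaneous pools. The other small heat-shock gene tested, HSPB11, whose product belongs to the transport machinery of cilia, was higher in oocytes (log2 difference -1.89, SE 0.19).

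The wide range of HSPB1 among oocyte pools followed the summed cumulus and granulosa markers, some of which were higher in oocytes than in CC. On the CPM as deposited, the pool with most HSPB1, small replicate 3 with 758 CPM, also had the highest marker sum (4397 CPM), and the pool with least, large replicate 1 with 60.3 CPM, had the lowest (818 CPM). Over the 16 oocyte pools, log2(CPM + 1) of HSPB1 and the log2 marker sum had Pearson's r = 0.919 and Spearman's rho = 0.926, each with a permutation p of 1e-05, the smallest that 100000 resamples can give (adjusted 0.00013 over 13 relations). The value was r = 0.934 with classification means removed and r = 0.874 without the 2 pools farthest from the median. The relation was computed after the values had been seen, for each of the 13 genes higher in CC. It passed for 2 of them, the other being HSPA13 (r = 0.645, rho = 0.676, adjusted permutation p = 0.039 and 0.033), which fell to r = 0.429 without the 2 farthest pools. For the other 11 genes r lay between -0.205 and 0.307. What part the cumulus transcripts in oocyte pools had in the HSPB1 level of oocytes was not tested.

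**Figure D2:**
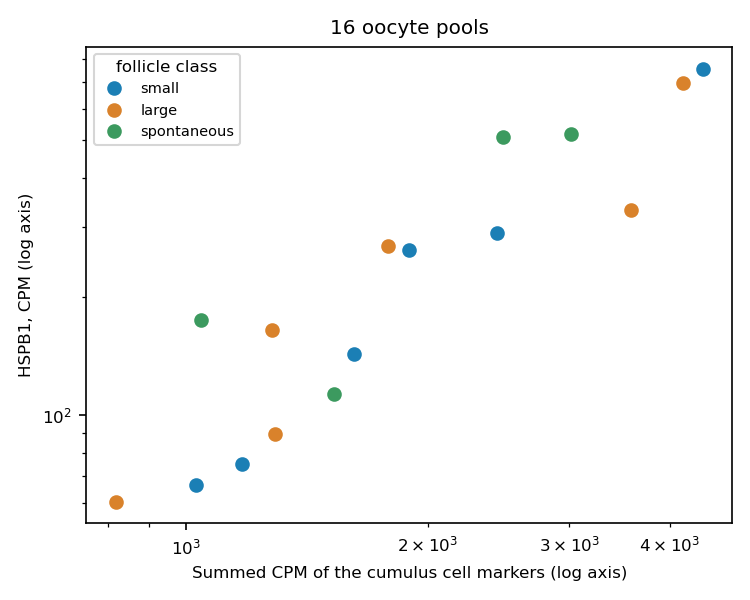
HSPB1 (CPM, log axis) against the summed CPM of the cumulus and granulosa markers (log axis) in 16 oocyte pools, coloured by follicle classification. HSPB1 spans 60.3 to 758 CPM and is higher in pools with a higher marker sum (r = 0.919), and the 3 classifications are mixed over that range.

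Chaperones of the ER were uneven between the cell types. Of 9 tested, 4 were called higher in CC (DNAJB9, HSPA13, DNAJC10 and DNAJB14) and 1 higher in oocytes (DNAJB11). The shares over all genes tested were 32.7% and 38.1%. DNAJB9, an ER J protein that restrains the stress sensor IRE1, had no read in 11 of 16 oocyte pools and 65 reads in the other 5 together, at most 2.40 CPM. In CC pools it had 12.2 to 36.9 CPM (median 28.2), a log2 difference of 4.38 (SE 0.20, adjusted p = 1.4e-21, limma). The ratio of its mean CPM was 77.5, larger than that of HSPB1 or HSPA4L, but it rests on few oocyte reads, and the pseudocount of 1 lowers its log2 difference. HSPA13, an HSP70 relative of microsomes, had 6.34 to 69.6 CPM in oocytes (median 25.3) and 223 to 646 CPM in CC (median 343), 13.1-fold higher in CC (log2 difference 3.804, SE 0.20, adjusted p = 5.2e-20, limma). DNAJC10, a J protein that reduces disulfides of misfolded proteins, was 5.04-fold higher in CC (log2 difference 2.47, SE 0.18), while DNAJB11, a J partner of the ER HSP70, was 2.36-fold higher in oocytes (log2 difference -1.28, SE 0.12), a call not kept with median-of-ratios scaling. DNAJC3, which restrains the kinase PERK, was under 2-fold higher in CC on CPM (log2 difference 0.89, SE 0.15) and past it with median-of-ratios scaling (1.30). HSP90B1, the HSP90 of the ER, was called in neither direction, at 2039 ± 273 CPM in oocytes (SD, n = 16) and 2970 ± 1141 CPM in CC (SD, n = 17; log2 difference 0.45, SE 0.10, adjusted p = 0.00012, limma).

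The mitochondrial folding chamber was higher in CC. HSPD1 had 57.4 to 176 CPM in oocyte pools (median 104) and 355 to 706 CPM in CC pools (median 457), 4.23-fold higher in CC (log2 difference 2.11, SE 0.13, adjusted p = 1.4e-17, limma). Its lid HSPE1 had 13.4 to 114 CPM in oocytes (median 75.3) and 137 to 285 CPM in CC (median 167), 2.65-fold higher (log2 difference 1.49, SE 0.18, adjusted p = 1.4e-09). Neither gene overlapped between the cell types. HSPA9, the mitochondrial HSP70, was higher in CC by less than 2-fold (log2 difference 0.57, SE 0.10, adjusted p = 4.6e-06, limma). The gap in mitochondrially encoded reads between CC and oocytes has the same direction. HSPD1 and HSPE1 stayed called higher in CC when mitochondrially encoded genes were left out of the scaling. Any other part of that gap in these differences was not tested. Of the 8 mitochondrial members tested, 3 were called higher in CC, the third being the J protein DNAJA3, and 2 in oocytes (DNAJC11 and DNAJC30). The shares over all genes tested were 32.7% and 38.1%. The call of DNAJC11 (log2 difference -1.01) was lost with median-of-ratios scaling, without mitochondrially encoded genes, with edgeR and with DESeq2.

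The cytosolic HSP90 genes leaned to CC. HSP90AA1, the inducible form, had 1068 to 1790 CPM in oocytes (median 1274) and 1489 to 2770 CPM in CC (median 2069), with overlapping pools (log2 difference 0.64, SE 0.08, adjusted p = 4.4e-09, limma), and reached 2-fold with median-of-ratios scaling (1.06) and with DESeq2 (1.08). HSP90AB1, the constitutive form, was 2.41-fold higher in CC (log2 difference 1.27, SE 0.12, adjusted p = 3.3e-12, limma), at 38.9 to 99.3 CPM in oocytes and 88.4 to 183 CPM in CC. A second identifier (ENSBTAG00000000778) carries the name of this protein without a symbol, with 408 to 736 CPM in oocytes and 1036 to 1920 CPM in CC in the tables as deposited and a log2 difference of 1.43. Reads of HSP90AB1 can thus be divided between identifiers, and its level is uncertain.

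**Figure D3:**
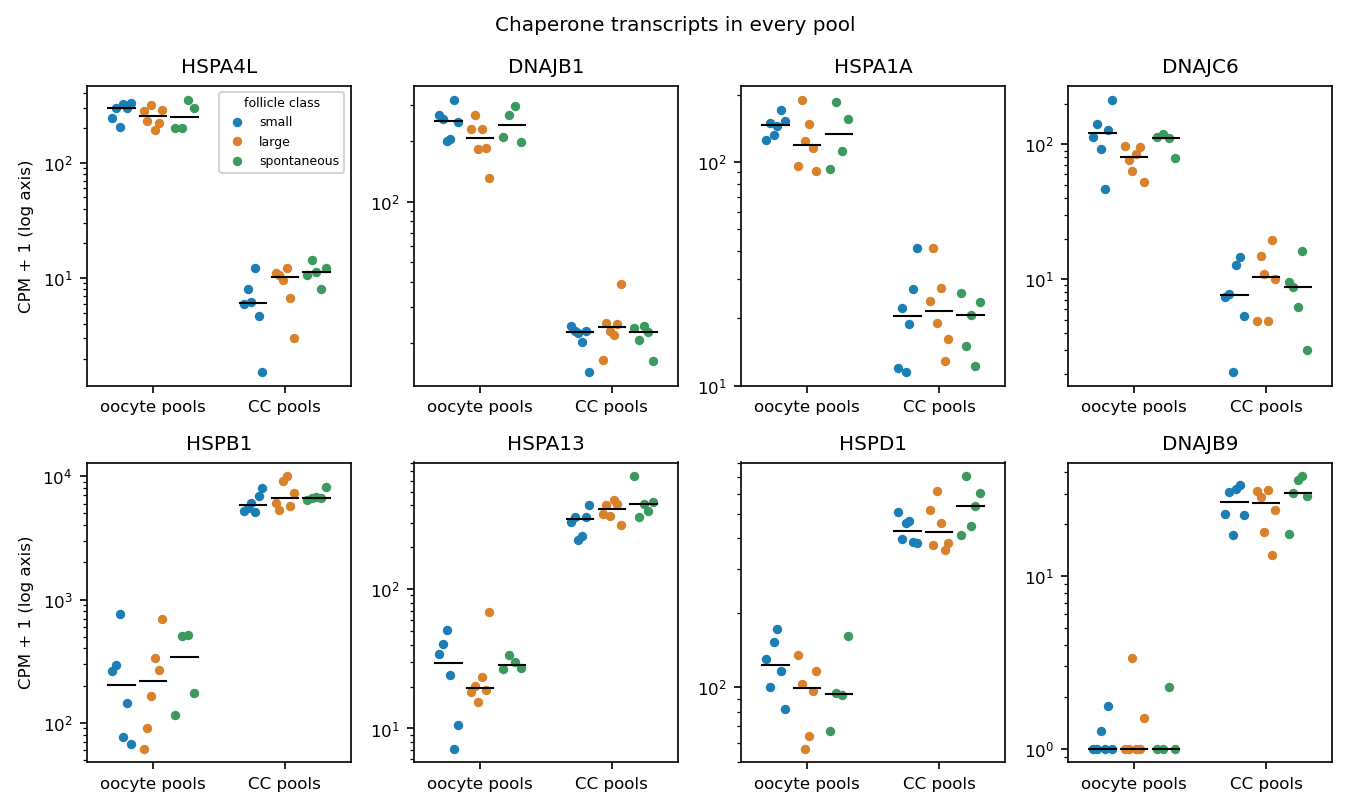
CPM + 1 (log axis, different in each panel) of 8 chaperone genes in every oocyte and CC pool, coloured by follicle classification, with the median of each group as a bar. The upper 4 genes lie higher in all oocyte pools and the lower 4 higher in all CC pools, and the classifications overlap within a cell type.

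A total of 17 of the 69 genes were not tested between the cell types, 9 of them listed in both tables. Their highest value in a pool was 13.5 CPM in oocytes and 22.5 CPM in CC. Among them were 6 of the 8 HSPB genes and both HSPA12 genes, which are divergent relatives of HSP70.

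The comparison of follicle classifications asked whether chaperone transcripts differ with the size of the follicle or the origin of the surge. In oocytes none of 51 genes tested met a nominal p of 0.01 or less in limma, in any of 3 comparisons. The background was 0.655% of all transcripts for small versus large, 0.774% for small versus spontaneous and 0.943% for large versus spontaneous. An unadjusted p under 0.05 was reached by 2, 0 and 3 genes (background 4.11%, 4.51% and 4.87%), and edgeR called 0 in each. DESeq2 called 0, 0 and 1, the last being HSPA6 in large versus spontaneous oocytes. HSPA6 had 10.2 to 22.2 CPM in large and 15.4, 36.9, 39.2 and 43.5 CPM in spontaneous oocyte pools, which overlap (log2 difference 1.07, SE 0.46, adjusted p = 0.97, limma). The median log2 difference over the genes was -0.01, 0.05 and 0.06, beside 0.05, 0.05 and 0.01 for all transcripts.

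HSPH1 had the smallest limma p of the chaperones in 2 of the oocyte comparisons. It had 209 to 455 CPM in small (median 285), 171 to 290 CPM in large (median 215) and 231, 290, 304 and 400 CPM in the 4 spontaneous pools. Large pools were lower on average than small ones (log2 difference -0.43, SE 0.18, nominal p = 0.022, adjusted p = 0.997, limma; exact two-sided permutation p = 0.045) and spontaneous pools higher than large ones (log2 difference 0.46, SE 0.19, nominal p = 0.021, adjusted p = 0.97, limma; exact permutation p = 0.048), but the pools of all classifications overlapped. These comparisons share the large pools. DNAJC10 was at 27.1 ± 10.4 CPM in small and 52.9 ± 26.0 CPM in large oocytes (SD, n = 6 each; log2 difference 0.86, exact permutation p = 0.041). DNAJC1, an ER membrane J protein, was at 20.9 ± 7.75 CPM in small (SD, n = 6) and 34.3 ± 3.97 CPM in spontaneous oocytes (SD, n = 4; exact permutation p = 0.019), and DNAJC19 at 25.2 ± 19.1 and 49.1 ± 44.0 CPM (exact permutation p = 0.30), the 2 genes with the smallest p there. DNAJC28 was at 4.07 ± 3.85 CPM in large (SD, n = 6) and 18.3 ± 16.2 CPM in spontaneous oocytes (SD, n = 4; exact permutation p = 0.048), with overlapping pools. All these genes were named for having 1 of the 2 smallest limma p-values of 51 in a comparison. Their unadjusted exact p-values are therefore not separate support for a difference. The smallest adjusted p of a chaperone in limma was 0.997 (small versus large), 0.987 (small versus spontaneous) and 0.968 (large versus spontaneous).

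In CC, HSP90B1 was the chaperone with the smallest p between small and spontaneous follicles. The 6 small pools had 1750, 1804, 1840, 2266, 2359 and 2648 CPM, the large pools 2190, 2632, 2752, 2771, 2786 and 3210 CPM, and the spontaneous pools 3160, 3548, 4178, 4207 and 6356 CPM. Every spontaneous pool was above every small pool, and the lowest spontaneous pool lay just under the highest large one. HSP90B1 rose 2.03-fold from small to spontaneous follicles (log2 difference 0.997, SE 0.21, nominal p = 0.00016, adjusted p = 0.13, limma), and the exact two-sided permutation p was 0.0043, the smallest that 6 against 5 pools allow. It was the 1 gene called of 52 in that comparison, where 2.38% of all transcripts were called. HSP90B1 and DNAJB11 were the 2 of 52 genes without overlap between small and spontaneous pools, against 1.16% of all transcripts. Leaving out each pool in turn kept the log2 difference between 0.84 and 1.10, the call held each time, and the lowest value was that without spontaneous replicate 1, the pool at 6356 CPM.

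The spontaneous CC libraries differed from the small ones in more than HSP90B1. Mitochondrially encoded genes took 11.6 to 39.8% of reads in small (median 21.8%), 13.1 to 24.8% in large (median 19.3%) and 13.0 to 20.3% in spontaneous CC pools (median 14.2%), and the median of all transcripts was 0.16 higher in spontaneous than in small pools. Without mitochondrially encoded genes this shift was 0.01, and the HSP90B1 difference was 0.84 (adjusted p = 0.52, limma), still past the nominal threshold. With median-of-ratios scaling it was 0.84 as well (adjusted p = 0.64, limma), also past it. The number of chaperone genes with a positive difference fell from 39 of 52 to 22 of 51 with that scaling, and the split of all called transcripts went from 221 higher and 10 lower to 79 and 48. The small CC libraries also held from 1911600 to 5772431 reads and the spontaneous ones from 4535826 to 5510272. The cumulus and granulosa markers summed to 10613 to 24214 CPM in small and 15892 to 28312 CPM in spontaneous CC pools, the 10 white blood cell markers to 33.1 to 125 and 46.8 to 232 CPM, and the theca markers to 266 to 1205 and 600 to 1324 CPM. The part of depth and of these cell types in the HSP90B1 difference was not tested.

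In oocytes HSP90B1 showed no difference that passed. It had 1395 to 2376 CPM in small, 1802 to 2290 CPM in large and 1804 to 2216 CPM in spontaneous oocyte pools (small to spontaneous log2 difference 0.14, SE 0.13, adjusted p = 0.99, limma). The difference between spontaneous and small was larger in CC than in oocytes by 0.86 on the log2 scale (SE 0.23, adjusted p = 0.32, limma interaction). It was the 1 gene of 52 past the threshold in that interaction (background 1.35%). No gene passed in the interactions for small versus large (background 1.12%) and large versus spontaneous (background 0.946%). In each of these, 3 of 52 genes had an unadjusted p under 0.05. The share of all genes under 0.05 is not available for the interactions, so no excess is read from these counts.

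From large to spontaneous follicles 2 of 52 genes were called in CC, against 1.66% of all transcripts, and 4 had an unadjusted p under 0.05 (background 7.07%). HSP90B1 was 1.58-fold higher in spontaneous pools (log2 difference 0.62, SE 0.19, nominal p = 0.0047, adjusted p = 0.57, limma; exact two-sided permutation p = 0.0087). DNAJB11 had 70.4 to 170 CPM in large (median 96.4) and 146, 146, 148, 167 and 186 CPM in spontaneous pools, and 1 large pool reached into the spontaneous range (log2 difference 0.66, SE 0.20, nominal p = 0.0042, adjusted p = 0.57, limma; exact permutation p = 0.022). Neither call held with median-of-ratios scaling. That of DNAJB11 was also lost without mitochondrially encoded genes, with edgeR and with DESeq2, and that of HSP90B1 with no filter and with the replicate number as a block. In addition, leaving out 1 pool ended the call of HSP90B1 in 4 of 11 cases and that of DNAJB11 in 5 of 11. The comparison shares its spontaneous pools with that of small and spontaneous follicles. With median-of-ratios scaling the split of all called transcripts went from 141 higher and 20 lower to 61 and 56.

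DNAJC19, a J protein of the mitochondrial import motor, was the 1 gene of 52 called between small and large CC, against 0.813% of all transcripts, and 2 had an unadjusted p under 0.05 (background 4%). It had 42.9 to 64.0 CPM in small (median 51.4) and 26.2 to 56.0 CPM in large pools (median 31.5), and large replicate 5 lay within the small range (log2 difference -0.63, SE 0.22, nominal p = 0.0098, adjusted p = 0.999, limma; exact permutation p = 0.013). Leaving out 1 pool ended the call in 10 of 12 cases. HSP90B1 was next by p, at 2111 ± 367 CPM in small and 2724 ± 328 CPM in large pools (SD, n = 6 each; log2 difference 0.38, SE 0.17, nominal p = 0.042, adjusted p = 0.999, limma; exact permutation p = 0.022).

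**Figure D4:**
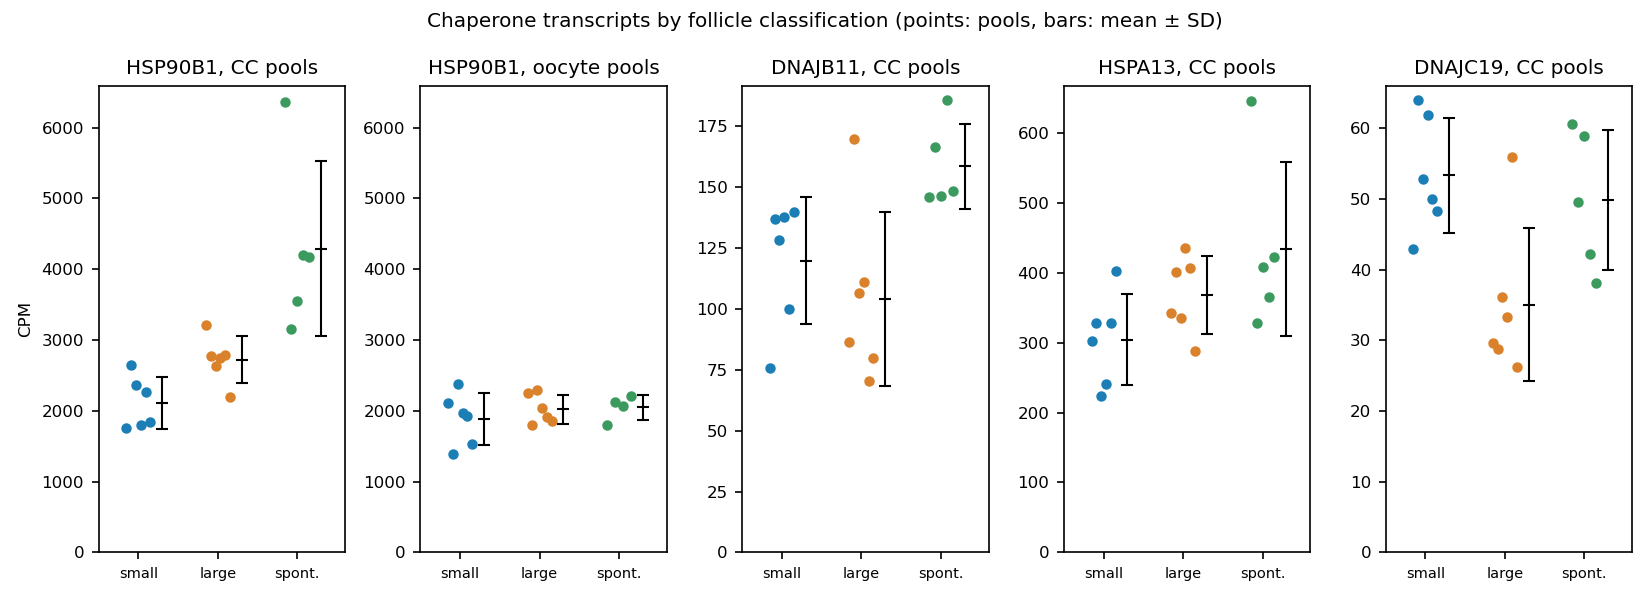
CPM by follicle classification, each point a pool and each bar the mean ± SD, for HSP90B1 in CC and in oocytes (same axis) and for DNAJB11, HSPA13 and DNAJC19 in CC. Spontaneous CC pools of HSP90B1 (3160 to 6356 CPM) lie above all small ones, while the oocyte pools overlap.

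Other ER chaperones of the 69 did not pass between small and spontaneous CC, where 71.9% of all transcripts had a positive difference on CPM. HSPA13 was at 304 ± 65.2 CPM in small (SD, n = 6) and 434 ± 124 CPM in spontaneous pools (SD, n = 5; log2 difference 0.50, SE 0.20, nominal p = 0.022, adjusted p = 0.51, limma; exact permutation p = 0.030). DNAJB11 (0.43) and DNAJC3 (0.46) also had an unadjusted p under 0.05, as had HSPA4L and DNAJC5, which made 6 genes, against 8.55% of all transcripts. DNAJB9, which is read as a marker of ER stress, differed by 0.18 (SE 0.25, adjusted p = 0.89, limma), with 16.2 to 32.7 CPM in small and 16.5 to 36.8 CPM in spontaneous pools.

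A list of ER folding and the unfolded protein response, outside the HSP and DNAJ families, had 24 tested genes in CC. They are named ER folding genes below. On CPM 21 of 24 were higher in spontaneous than in small CC, beside 71.9% of all transcripts. With median-of-ratios scaling 19 of 24 were, and the share of all transcripts with that scaling is not available. Of the 24, 5 were called between small and spontaneous CC, all higher in spontaneous pools, where 2.28% of all transcripts were called in that direction. The median log2 difference of the list was 0.38, beside 0.16 for all transcripts, and 0.225 beside 0.01 with median-of-ratios scaling. PDIA4, a disulfide isomerase, had 186 to 245 CPM in small and 314 to 390 CPM in spontaneous pools (log2 difference 0.71, SE 0.15, adjusted p = 0.13, limma). PDIA6, another isomerase, had 486 to 868 and 923 to 1478 CPM (0.70, SE 0.18), and HYOU1, the HSP110 relative of the ER, 39.8 to 73.3 and 78.6 to 126 CPM (0.77, SE 0.20). None of these genes overlapped between small and spontaneous pools, nor did SIL1, the nucleotide exchange factor of the ER HSP70 (1.07, SE 0.29), and the lectin chaperone CALR (0.67, SE 0.20). PDIA4, PDIA6 and HYOU1 were also called with median-of-ratios scaling, without mitochondrially encoded genes, and by edgeR and DESeq2. SIL1 and CALR were not called with median-of-ratios scaling. SYVN1, a ubiquitin ligase of the ER, was at 61.4 ± 19.2 CPM in small (SD, n = 6) and 41.3 ± 9.24 CPM in spontaneous pools (SD, n = 5; log2 difference -0.53, SE 0.24, adjusted p = 0.58, limma), and was called as lower in spontaneous pools with that scaling.

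**Figure D5:**
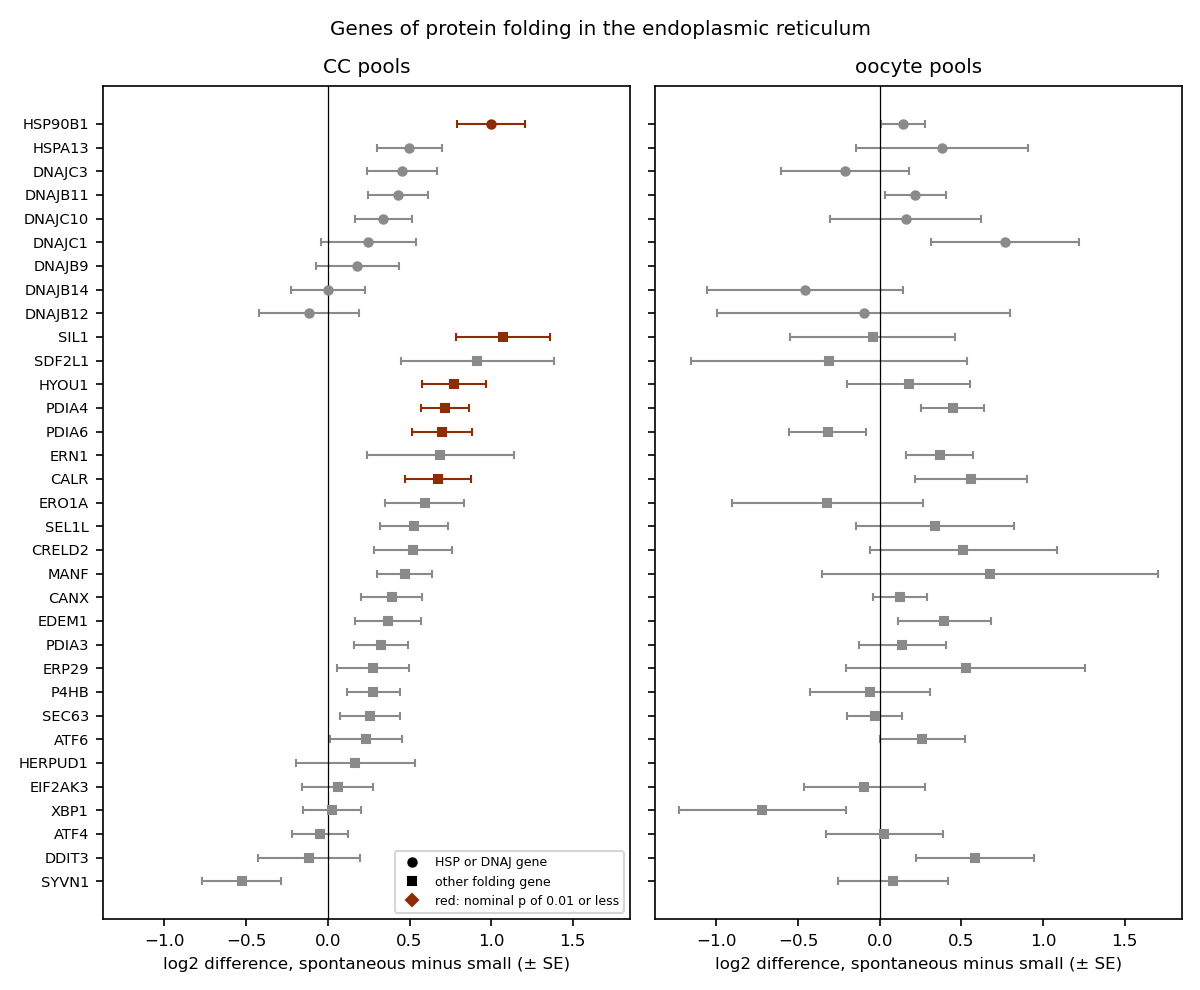
Log2 difference in CPM + 1 between spontaneous and small pools, with SE, for the ER members of the HSP and DNAJ families (circles) and the other ER folding genes (squares), in CC at left and oocytes at right. In CC HSP90B1 and 5 folding genes (red) met a nominal p of 0.01 or less, and in oocytes no gene shown did. No interaction with cell type is given for the folding genes, so no difference between the cell types is read for them.

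In oocytes 1 of 23 tested genes of this list was called, between small and large pools, where 0.655% of all transcripts were called. It was CALR, at 61.1 ± 33.2 CPM in small and 98.8 ± 24.8 CPM in large pools (SD, n = 6 each; log2 difference 0.80, SE 0.28, adjusted p = 0.997, limma). From small to spontaneous oocytes 15 of 23 were higher, beside 55% of all transcripts. PDIA4 was at 183 ± 24.1 CPM in small (SD, n = 6) and 250 ± 36.3 CPM in spontaneous oocytes (SD, n = 4), and PDIA6 at 184 ± 46.4 and 148 ± 44.4 CPM. From large to spontaneous CC 2 of 24 tested genes of the list were called, beside 1.66% of all transcripts. These were MANF (0.71, SE 0.18), a secreted ER protein, and CALR (0.59, SE 0.19). None of the genes of the other 4 chaperone lists was called between classifications, beside 0.655 to 2.38% of all transcripts. These lists were the co-chaperones and exchange factors (29 tested in oocytes and 28 in CC), the heat-shock factors with related genes (5 and 7), the TRiC/CCT chaperonin with prefoldin (14 and 14), and the mitochondrial proteases and import factors (13 and 15). An unadjusted p under 0.05 in limma was reached by 0 to 3 genes of a list in each comparison, beside 4 to 8.55% of all transcripts. No other tool was run for these 4 lists. Between oocytes and CC, 16 of 24 ER genes were called, 12 of them higher in CC, and 11 of 14 genes of mitochondrial quality control, 7 of them higher in oocytes, beside 70.9% of all genes called, 32.7% as higher in CC and 38.1% as higher in oocytes.

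Pairs of chaperones known to work or to be induced together were compared across pools, within each table. HSPD1 and HSPE1, which lie head to head on one promoter region in mammals, had r = 0.514 and rho = 0.402 over 17 CC pools (permutation p = 0.035 and 0.11, adjusted over 6 relations 0.21 and 0.67). Over 16 oocyte pools they had r = 0.0446 and rho = 0.147. With classification means removed r was 0.385 in CC, and without the 2 pools farthest from the median 0.531 (adjusted permutation p = 0.46 and 0.15). HSPH1 and DNAJB1 had r = 0.182 in oocytes and 0.0582 in CC, where the value rested on the 2 farthest pools and was 0.517 without them (adjusted permutation p = 0.15). For HSP90AA1 and HSPH1 r was 0.191 in oocytes and -0.0642 in CC. None of the 6 relations passed the adjustment (adjusted permutation p of 0.21 to 0.87 for r).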

How the data were processed

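RNA of 16 oocyte and 17 CC pools was sequenced. The authors amplified cDNA, aligned reads to the UMD3.1 genome (Hisat2), obtained gene counts with featureCounts from Ensembl annotation, and deposited CPM. Whole reads were recovered from 100% of the CPM values (within 0.01 of a whole number) and 0 columns were left unmatched. Transcripts with at least 5 CPM in 4 oocyte or 5 CC pools were kept, as in the study. Classifications were compared pairwise with limma 3.58.1 in R 4.3.3 on log2(CPM + 1) with a trend, two-sided, at a nominal p of 0.01 or less, and Benjamini-Hochberg adjusted p-values over all transcripts. The pseudocount understates changes of low genes. Calls with small oocyte pools also had to hold without small replicate 3. The study tested counts with edgeR and DESeq2. These tools (4.0.16 and 1.42.0) were run here on the recovered reads as alternatives.

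Cell types were compared on CPM recomputed from the recovered reads over genes in both tables, with classification as covariate, for genes whose mean over the 2 cell types was at least 5 CPM. Interactions used 6 group means. Exact permutation tests compared mean CPM of named genes (scipy 1.17.1). The p-values measure the spread between pools, each of 4 complexes. The tests recovered known changes in simulated counts. Those changes were larger than the classification differences of the chaperones and were placed only in genes with many reads. Recovery of smaller changes, or of changes in low genes, was not tested. Members, lists, compartment groups and the named genes were chosen with earlier results of these data known. Named were 15 core chaperones fixed by name (14 listed), in each classification comparison the members called and the 2 with the smallest p, the 5 called members with the largest difference in each direction between the cell types, and called genes of the chaperone lists. Other genes named were chosen after their values were seen. Alternatives were another pseudocount, filter, scaling, tool or fit, a replicate block and leaving out each pool. Without a genome of the authors' build no coordinates or sequences are given, and without transcript lengths levels are not compared between genes. One planned relation, with HSPA5, was not computed.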

Additional observations from a re-analysis of the deposited data

Results flagged for a closer look

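Among the 26 genes named by rule, 1 pool stood apart from the others in 20 of 156 groups of pools (9 in oocytes and 11 in CC), judged by its gap to the nearest pool over the whole range. For independent groups of normally distributed values, chance alone marks about 1 group in 20. CPM of low genes need not be normal and the groups share pools, so no excess is read from this count. Values are CPM.

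In oocytes, DNAJB2 was at 8.28 in small replicate 2 (others 0.164 to 3.04). DNAJB9 was at 0.779 in small replicate 5 (others up to 0.261), 2.33 in large replicate 3 (others up to 0.507) and 1.29 in spontaneous replicate 3 (others at 0). DNAJC19 was at 62.6 in small replicate 6 (others 10.2 to 23.1). DNAJC25 was at 11.9 in large replicate 5 (others up to 4.16) and 12.7 in spontaneous replicate 3 (others up to 0.797). HSPA13 was at 67.6 in large replicate 6 (others 14.6 to 22.5) and HSPB1 at 758 in small replicate 3 (others 66.4 to 290), pools that also had the 2 highest sums of cumulus markers (4158 and 4397).

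In CC, large replicate 5 stood apart for DNAJC19 (56.0, others 26.2 to 36.2), DNAJC25 (54.8, others 22.8 to 30.8), DNAJC28 (31.8, others 3.84 to 8.39) and HSPE1 (238, others 137 to 166). Small replicate 4 stood apart for DNAJC28 (15.5, others 1.05 to 6.44) and HSPE1 (217, others 154 to 171). Spontaneous replicate 1 stood apart for DNAJC1 (59.8, others 20.9 to 27.6) and DNAJC10 (186, others 226 to 241). HSPA6 was at 3.20 in large replicate 2 (others up to 1.17) and 3.63 in spontaneous replicate 4 (others up to 1.04). HSPB1 was at 8217 in spontaneous replicate 5 (others 6431 to 6818).

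The difference of HSP90B1 between small and spontaneous follicles was larger in CC than in oocytes by 0.86 on the log2 scale, by a test of that difference (adjusted p = 0.32, limma).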

How the results depend on the processing

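Between oocytes and CC the number of genes called was 33 with CPM, 31 with median-of-ratios scaling, without mitochondrially encoded genes and with edgeR, 29 with DESeq2, and 31 to 33 when each pool was left out. Between classifications few genes were called, so 1 gene moves a count. In small versus spontaneous oocytes the count went from 0 to 1 (HSPA1L) with no filter and with a filter at a mean of 1 CPM. In large versus spontaneous oocytes it went from 0 to 1 with DESeq2 (HSPA6). In CC it went from 1 to 0 for small versus large at a mean of 1 CPM, and from 1 to 2 for small versus spontaneous at that filter and with DESeq2. With DESeq2 the count of 2 for large versus spontaneous CC held DNAJC28 in place of DNAJB11. For large versus spontaneous CC it went from 2 to 1 with no filter, without mitochondrially encoded genes and with edgeR, and to 0 with median-of-ratios scaling, where the ER folding genes went from 2 to 1. Leaving out each pool gave 0 to 1, 0 to 0 and 0 to 2 in oocytes (small versus large, small versus spontaneous, large versus spontaneous), 0 to 1, 1 to 2 and 0 to 3 in CC, 1 to 3 in the interactions, and 4 to 8 and 1 to 4 for the ER folding genes from small and from large to spontaneous CC. The call of HSP90B1 from small to spontaneous CC held in every setting tried, and with all 3 classifications in 1 fit its adjusted p was 0.046 (limma), against 0.13 to 0.64 in the other settings with all pools. Without the 2 farthest pools, HSPH1 and DNAJB1 in CC went from 0.0582 to 0.517. Co-variation changed sign with class means removed for HSPD1 and HSPE1 (-0.0185) and for HSPH1 and DNAJB1 (-0.111) in oocytes, and without the 2 farthest pools for HSP90AA1 and HSPH1 (-0.0829 in oocytes and 0.0369 in CC). The causes were not tested. Over all transcripts, small versus spontaneous CC gave 231 calls with CPM, 127 with median-of-ratios scaling and 134 without mitochondrially encoded genes.

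No label ties replicate numbers to shared complexes, and same-numbered pools did not deviate together throughout (correlations of -0.19 to 0.224 between classifications and -0.0281 to 0.0596 between oocyte and CC pools), so which pools share complexes is not known. With the replicate number as a block, 33 genes were called between the cell types (small and large pools), no such fit was made for the interactions, and the counts were 0, 0 and 1 (HSPB1) in oocytes, 0, 1 and 1 in CC, and 4 and 1 of the ER folding genes. Genes under 5 CPM rest on few reads, and in CC 3 reads equal up to 1.57 CPM.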
